A study of Rattus norvegicus with 10 samples.

Results

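The genes of the kinesin motors were followed in arrays of the nucleus tractus solitarii (NTS) of hypertensive and normotensive rats; this nucleus is where baroreceptor and other visceral afferents enter the brainstem. Members were all probe sets whose single platform gene symbol began with Kif and a digit or was Klc1, Klc2, Klc3 or Klc4, which gave 59 of the 31042 non-control probe sets, for 31 of the 14217 genes with a symbol of their own. The spontaneously hypertensive rat (SHR), whose blood pressure climbs with age on a fixed inbred background, was set against the Wistar-Kyoto rat (WKY), its usual normotensive control. Both groups were males of 10 to 13 weeks for which no treatment is named, with 5 arrays each, and the labels leave unsettled whether RNA of 1 animal or of 5 went onto each array. Tissue was taken whole, so fewer cells of a type and less RNA per cell cannot be told apart in any value below. The catecholamine genes Th and Dbh, which mark the noradrenergic neurons of this region, and the glutamatergic neuron gene Slc17a6 reached the 40th percentile of the array in all 10 cases.

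Kinesins are ATP-driven motors that walk along microtubules, most of them toward the plus end. In axons the kinesin-1 motors Kif5a, Kif5b and Kif5c, with the light chains Klc1 to Klc4 that bind cargo, and the kinesin-2 and kinesin-3 motors carry vesicles, mitochondria and cytoskeletal parts from the cell body toward the terminal. Another set of kinesins builds the spindle, moves chromosomes and completes cytokinesis, and is made by dividing cells, which are scarce in adult brainstem. By these roles 16 genes with 36 probe sets were placed with transport, 10 genes with 13 probe sets with mitosis, and 5 genes with 10 probe sets with neither.

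A probe set was tested when 5 or more of its 10 signals reached the 40th percentile of their array. Of the 36 transport probe sets 26 passed this filter (72.2%), covering 15 of the 16 genes; the exception was the single probe set of Kif1b, a motor of mitochondria and synaptic vesicle precursors. Of the 13 mitotic probe sets 2 passed (15.4%), 1 each of Kif11 and Kif22, and 8 of the 10 mitotic genes had none. Over all probe sets with 1 gene symbol the share that passed was 67.0%. The signal of one probe set is not a level that can be set against another's, so these shares only say how many members were bright enough to be tested.

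One kinesin, Kif13a, passed the test between strains, and it was higher in SHR. Of the 35 tested kinesin probe sets 1 was higher and 0 were lower (limma with Benjamini-Hochberg adjustment over all tested probe sets, at a threshold of 0.05), a share of 2.86% against 4.26% of all 18846 tested probe sets in either direction and 2.06% in the direction higher in SHR. A single call does not set the family apart from the array at large. An unadjusted p under 0.05 was found for 7 of the 35, and the share over all tested probe sets was not counted here. The median log2 difference (SHR minus WKY, on the log2(signal + 16) scale, as all log2 differences below) was 0.041 for the tested kinesins and 0.016 for all tested probe sets. Transport members had a median of 0.045, with 15 of 26 above 0, and the other kinesins one of -0.062, with 3 of 7 above 0. For 31 of the 34 uncalled probe sets the 95% interval of the difference, taken for each alone, lay within 1.5-fold either way. That fold is of signal + 16, so the change of a low signal itself can be larger.

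**Figure D1:**
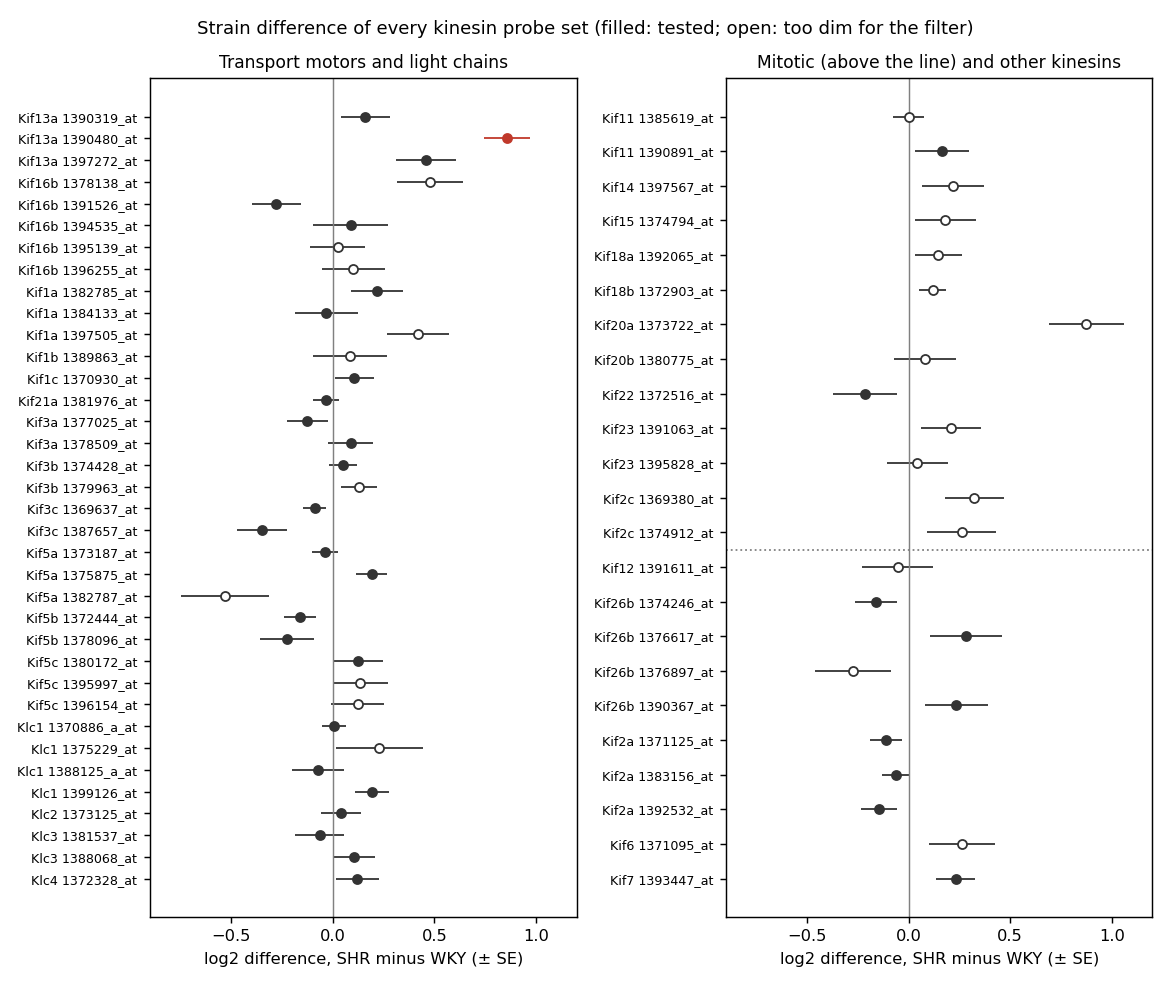
Log2 difference, SHR minus WKY, of each of the 59 kinesin probe sets with its standard error, transport members on the left and mitotic and other kinesins on the right; filled points were tested, open points were too dim for the filter and come from a fit without it. The red point is the Kif13a probe set at 0.86, and the open point farthest to the right is Kif20a at 0.88.

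Kif13a is a kinesin-3 motor that, in mouse and human cells, carries mannose-6-phosphate receptors and draws out the tubules of recycling endosomes. On its probe set 1390480_at the SHR arrays had signals of 95.7, 134, 112, 108 and 119, against 58.8, 62.5, 38.8, 61.1 and 58.7 in the WKY arrays. All SHR values lay above all WKY values, with a wide gap between 95.7 and 62.5. The means were 114 ± 14.2 in SHR and 56.0 ± 9.73 in WKY (SD, n = 5), and the log2 difference was 0.86 ± 0.11 (SE; limma adjusted p = 0.00021), 1.81-fold on this scale. Because the signal is modest, the size of the difference depends on the offset added before the logarithm: it was 1.02 with an offset of 1 and 0.57 with an offset of 64, and the call held with both.

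The other Kif13a probe sets did not pass. On 1397272_at the SHR arrays had 65.2, 49.4, 90.1, 56.9 and 42.4 and the WKY arrays 42.3, 48.8, 33.0, 33.8 and 36.9, so that the groups overlapped, and the log2 difference of 0.46 ± 0.15 did not pass (limma adjusted p = 0.0913). Among the alternative fits it passed only without SHR 5 (0.55, limma adjusted p = 0.0411). The difference was 0.37 with quantile normalization (limma adjusted p = 0.180) and 0.26 with array median signal as a covariate (limma adjusted p = 0.710). Median signal was 44.2 to 49.8 in SHR arrays and 39.6 to 45.7 in WKY arrays, so this covariate overlaps with strain. A fit with it cannot fully separate strain from median signal. On 1390319_at the means were 43.3 ± 5.62 in SHR and 37.1 ± 5.28 in WKY, with a log2 difference of 0.16 ± 0.12 (limma adjusted p = 0.474). The part of the transcript that each probe set reads was not looked up here.

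**Figure D2:**
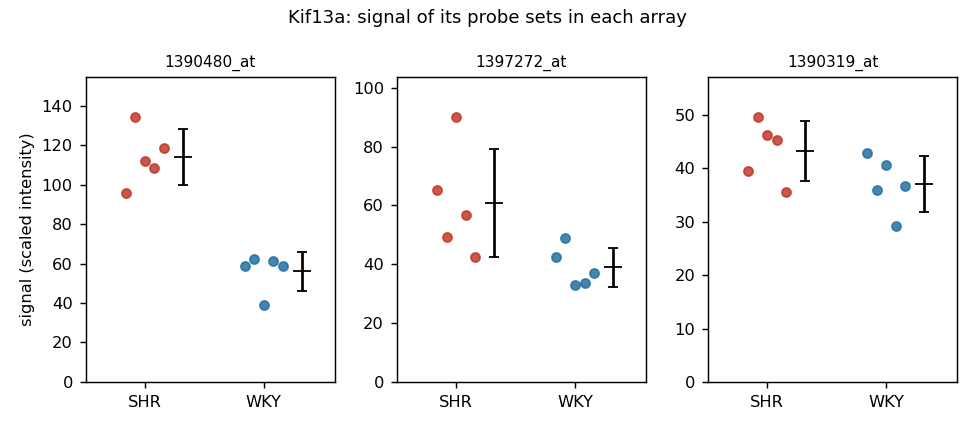
Signal (scaled intensity, linear axis from 0) of the 3 Kif13a probe sets in each SHR and WKY array; points are arrays, and the bar beside them is the mean with its SD. On 1390480_at every SHR array (95.7 to 134) stands above every WKY array (38.8 to 62.5), whereas the strains overlap on the other probe sets.

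To ask whether probe sets of 1 gene moved by unequal amounts, the log2 signal of a gene's brightest tested probe set minus that of a dimmer one was compared between strains over all 3287 such pairs. Of the 15 kinesin pairs, from 11 genes, 1 passed, against 3.92% of all pairs. It was that of Kif13a 1390480_at and 1390319_at, whose strain differences were unequal by 0.70 ± 0.15 log2 units (limma adjusted p = 0.0201). The ratio of their signals ran from 2.39 to 3.33 in SHR arrays and from 0.954 to 2.1 in WKY arrays, without overlap. The call ended without WKY 1 (limma adjusted p = 0.0506) and without both SHR 2 and SHR 3 (limma adjusted p = 0.0796). The pair of 1390480_at and 1397272_at did not pass (0.40 ± 0.18; limma adjusted p = 0.263).

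The sequences before the annotated starts of Kif13a, the kinesin that passed, and of Kif20a, the mitotic kinesin whose strains did not overlap, were read from RefSeq (GRCr8, plus strand, chr17:17972603-17972852 and chr18:26504172-26504421). Each is the 250 bases up to the start, and capitals mark CCAAT and GGGCGG on either strand.
Kif13a: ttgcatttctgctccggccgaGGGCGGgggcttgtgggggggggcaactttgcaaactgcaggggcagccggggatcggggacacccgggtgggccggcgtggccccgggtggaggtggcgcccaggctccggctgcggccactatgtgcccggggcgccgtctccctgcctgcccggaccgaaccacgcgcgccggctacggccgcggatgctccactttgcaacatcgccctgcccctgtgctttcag
Kif20a: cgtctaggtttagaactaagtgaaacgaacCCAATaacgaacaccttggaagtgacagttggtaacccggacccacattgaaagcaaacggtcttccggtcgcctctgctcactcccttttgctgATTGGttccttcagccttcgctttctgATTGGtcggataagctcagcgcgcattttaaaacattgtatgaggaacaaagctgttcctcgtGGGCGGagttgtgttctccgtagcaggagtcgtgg
CCAAT is the box read by the factor NF-Y, which is known from cell cycle genes, GGGCGG is the box read by Sp factors, and TTTGAA is the cell cycle homology element of many mitotic genes. In the RefSeq windows of 250 bases before to 50 after the start, 28 of the 31 kinesin genes had an entry. All windows numbered 33469, more than the 14217 genes with a symbol on the array, so the shares over all windows come from an unlike set. GGGCGG stood in 14 of 15 transport genes and 6 of 9 mitotic genes, against 33.1% of all windows. CCAAT stood in 4 of 15 transport and 5 of 9 mitotic genes, against 37.5% of all windows. TTTGAA stood in 0 of 15 transport and 4 of 9 mitotic genes, against 18.3% of all windows. Kif5a, Kif7 and Kif14 had no entry. All were searched on both strands, and the capitals of one do not run into those of another. A match is a run of letters and not a site shown to be bound.

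Of the other kinesin-3 motors, Kif1b was too dim to be tested, and Kif1a, Kif1c and Kif16b did not pass. Kif1a, the motor of synaptic vesicle precursors, had 90.2 ± 14.4 in SHR and 76.0 ± 17.1 in WKY on its brightest probe set (log2 difference 0.22 ± 0.13; limma adjusted p = 0.349), and -0.031 on another. Its 3rd probe set was too dim to be tested, with 8.52 to 20.8 in SHR arrays and 2.45 to 13.3 in WKY arrays. Kif1c, a motor of dense-core vesicles, had 89.2 ± 11.1 in SHR and 81.7 ± 8.25 in WKY (0.11 ± 0.096; limma adjusted p = 0.561). Kif16b, which moves early endosomes, had 5 probe sets, of which 2 were tested. They differed by 0.088 ± 0.18 and -0.28 ± 0.12 (limma adjusted p = 0.829 and 0.194), so the tested probe sets gave no common direction. The dimmer, untested ones differed by 0.48, 0.10 and 0.023, so that -0.28 was the only value below 0.

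Kinesin-1, the main motor of fast axonal transport, was tested on all 7 of its genes and 0 were called, where 1.67% of all 10668 genes tested on their brightest probe set were called higher and 2.43% lower, so that a count of 0 does not set it apart. Klc1, its most studied light chain, had signals of 1574, 1747, 1743, 1717 and 1667 in SHR arrays and 1476, 1692, 1683, 1742 and 1835 in WKY arrays. The SHR values lay within the range of the WKY values, and the log2 difference was 0.0061 with a 95% interval from -0.12 to 0.14. A dimmer Klc1 probe set, 1399126_at, had 144 ± 15.7 in SHR and 123 ± 7.56 in WKY (0.19 ± 0.083; limma adjusted p = 0.192). Klc2 had 368 ± 51.0 in SHR and 357 ± 47.8 in WKY (0.041 ± 0.098), Klc3 79.9 ± 18.4 and 83.1 ± 8.33 (-0.064 ± 0.12), and Klc4 112 ± 18.4 and 102 ± 14.0 (0.12 ± 0.11).

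Among the heavy chains, the widely expressed Kif5b had 757, 658, 679, 829 and 840 in SHR arrays and 816, 808, 764, 843 and 983 in WKY arrays. The SHR arrays tended to be the lower ones but overlapped with WKY, and the log2 difference of -0.16 ± 0.080 did not pass (limma adjusted p = 0.256). Its second probe set differed by -0.23 ± 0.13 (limma adjusted p = 0.349). Kif5a, the neuronal heavy chain that carries neurofilaments, had 481 ± 28.4 in SHR and 496 ± 35.5 in WKY on its brightest probe set (-0.040 ± 0.064), and 284 ± 33.2 and 245 ± 10.3 on 1375875_at (0.19 ± 0.076; limma adjusted p = 0.159). A 3rd Kif5a probe set was too dim to be tested; 4 of its SHR arrays had 2.98 to 9.13 and SHR 5 had 30.3, against 12.3 to 24.9 in WKY. Kif5c, the other neuronal heavy chain, had 93.1 ± 16.8 in SHR and 83.9 ± 14.4 in WKY (0.13 ± 0.12; limma adjusted p = 0.583).

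Of the kinesin-2 motors, which also serve transport within cilia, Kif3b had 230.0 ± 20.6 in SHR and 221 ± 6.92 in WKY (0.049 ± 0.069; limma adjusted p = 0.727). Kif3a had 53.9 ± 2.94 in SHR and 60.5 ± 6.84 in WKY (-0.12 ± 0.099), while its second probe set differed by 0.087 ± 0.11. Kif3c, a neuronal partner of Kif3a, had 408 ± 10.4 in SHR and 435 ± 21.8 in WKY on the brighter probe set (-0.090 ± 0.056; limma adjusted p = 0.381). On the dimmer one, 1387657_at, it had 67.0, 66.6, 46.9, 47.6 and 56.2 in SHR arrays and 56.1, 71.5, 87.6, 84.0 and 85.6 in WKY arrays. The SHR values were mostly the lower ones, but WKY 1 lay among them, and the difference of -0.35 ± 0.12 did not pass (limma adjusted p = 0.119). Kif21a, a kinesin-4 motor that restrains microtubule growth, had 945 ± 78.6 in SHR and 967 ± 55.2 in WKY (-0.034 with a 95% interval from -0.17 to 0.10).

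**Figure D3:**
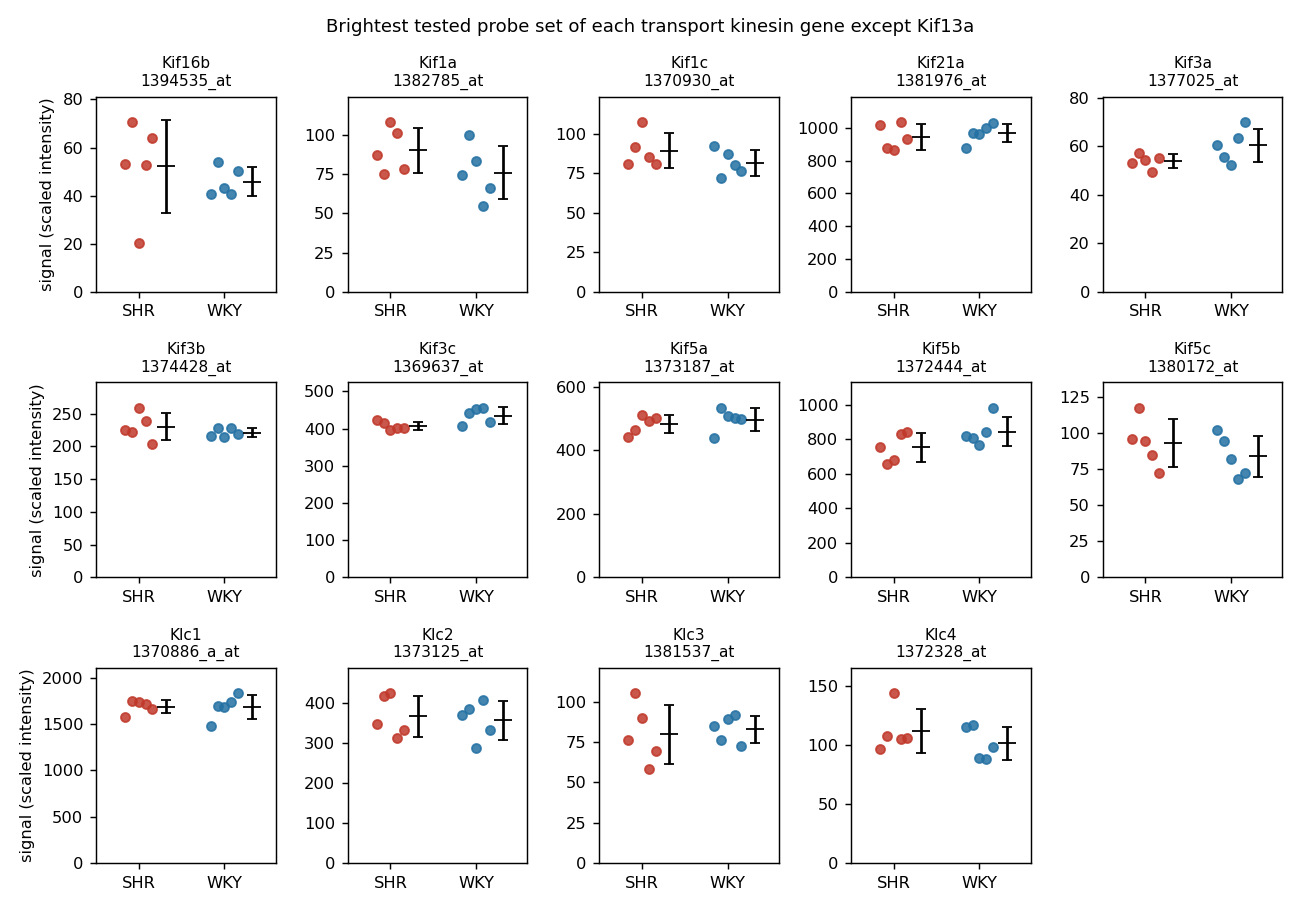
Signal (scaled intensity, linear axes from 0, a different scale in each panel) of the brightest tested probe set of 14 transport kinesin genes in each SHR and WKY array, with the mean and SD beside the points. The strains overlap in every panel, as for Klc1 with 1574 to 1747 in SHR and 1476 to 1835 in WKY.

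Kinesins outside both classes gave no call either. Kif7, a regulator of Hedgehog signalling at the tip of the cilium, had 60.2, 51.3, 57.1, 52.9 and 55.9 in SHR arrays and 46.6, 44.7, 45.0, 44.0 and 44.1 in WKY arrays. The groups did not overlap, but the difference was small (0.23 ± 0.097) and did not pass (limma adjusted p = 0.179). Kif7 and Kif13a were the 2 tested kinesin probe sets with all SHR arrays above all WKY arrays, against 3.22% of all tested probe sets, and 0 had all SHR arrays below, against 2.91%. Kif2a, a microtubule depolymerase that in mice limits axon branching, had differences of -0.062, -0.11 and -0.15 on 3 probe sets, the last with 156 ± 15.8 in SHR and 175 ± 21.0 in WKY (limma adjusted p = 0.372). Of 4 Kif26b probe sets 3 were tested and differed by -0.16, 0.28 and 0.23, none of which passed. Kif6, which in mice is needed for ependymal cilia, and Kif12 were too dim to be tested, with 30.3 ± 9.08 in SHR and 22.4 ± 5.42 in WKY for Kif6 and 27.3 ± 8.57 and 28.9 ± 8.36 for Kif12.

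Of the mitotic kinesins that could be tested, Kif11, which pushes spindle poles apart, had 42.7 ± 6.96 in SHR and 36.4 ± 7.14 in WKY (0.17 ± 0.13; limma adjusted p = 0.507). Kif22, a chromosome-arm motor, had 52.0 ± 17.9 in SHR and 61.5 ± 12.5 in WKY (-0.21 ± 0.16; limma adjusted p = 0.465). With 2 members tested, transport and mitotic kinesins could not be compared as classes on tested values.

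Kif20a, a motor of the central spindle needed for cytokinesis, had signals of 18.0, 23.1, 40.6, 29.8 and 25.3 in SHR arrays and 3.69, 14.4, 14.9, 3.19 and 3.28 in WKY arrays. All SHR values lay above all WKY values, but 1 of 10 arrays reached the 40th percentile, and the signals were not judged against background. In a fit without the filter its log2 difference was 0.88 ± 0.18 (limma adjusted p = 0.0267). In that fit 2 of the 59 kinesin probe sets were called higher, 1 each of Kif13a and Kif20a, against 1.12% of all 31042 probe sets. The difference ran from 0.34 with an offset of 64 to 1.91 with an offset of 1. Once array median signal, which overlaps with strain, was added as a covariate it was 0.54 and did not pass (limma adjusted p = 0.459). It also did not pass without SHR 4, WKY 1, WKY 4 or WKY 5 (limma adjusted p = 0.0579, 0.0684, 0.0811 and 0.0831). Kif20a was the 1 of the 24 untested kinesin probe sets whose groups did not overlap with SHR above, against 3.55% of all untested probe sets.

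The remaining mitotic kinesins were dim in both strains and overlapped. Kif2c, a depolymerase of the centromere, had 27.2 ± 5.33 in SHR and 18.7 ± 5.47 in WKY on one probe set and 32.3 ± 9.85 and 23.8 ± 5.49 on the other. Kif14, a cytokinesis motor, had 28.3 ± 6.44 in SHR and 22.1 ± 6.36 in WKY, and Kif23, a subunit of the central spindle complex, 22.7 ± 5.90 and 17.4 ± 4.96 on its brighter probe set. Kif15, Kif18a, Kif18b and Kif20b had mean signals under 17 in both strains. The summed signal of the 11 untested mitotic probe sets, Kif20a included, was 163 to 213 in SHR arrays and 100.2 to 150.0 in WKY arrays. Without Kif20a it was 137 to 190.2 in SHR arrays and 96.9 to 142 in WKY arrays, so the strains then overlapped. With Kif20a, 10 of the 11 had a difference above 0 with a median of 0.18. Untested probe sets as a whole leaned the same way. Of the 12196 of them 71.8% had a difference above 0, with a median of 0.094, and their mean signal was 13.8 to 16.8 in SHR arrays and 11.4 to 14.1 in WKY arrays. The median signal of an array was likewise 44.2 to 49.8 in SHR and 39.6 to 45.7 in WKY, and the part of this in the mitotic values was not tested.

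**Figure D4:**
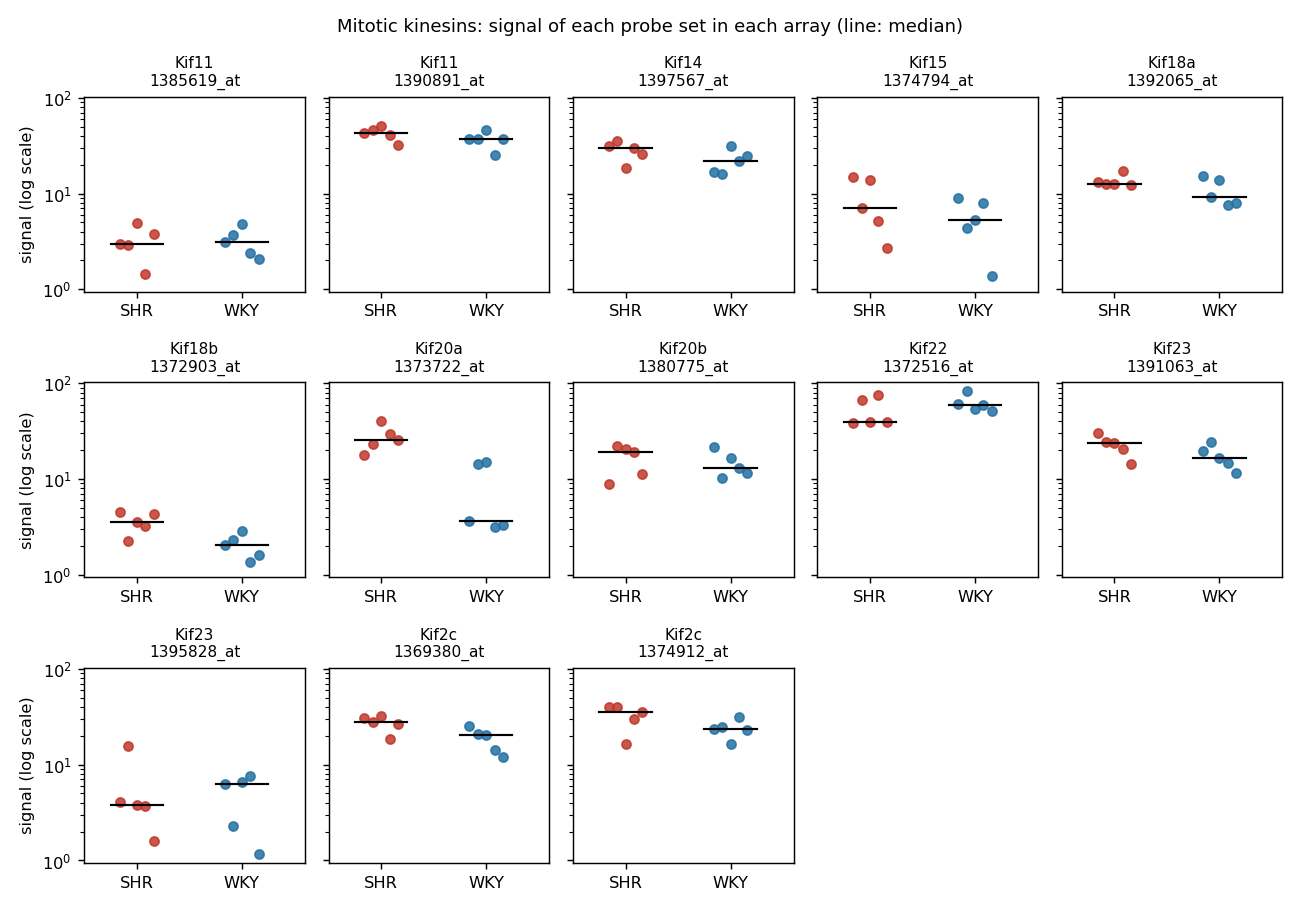
Signal (scaled intensity, log axis) of all 13 probe sets of mitotic kinesins in each SHR and WKY array, with the median as a line. Kif11 1390891_at and Kif22 were bright enough to be tested, and Kif20a is the panel whose SHR arrays (18.0 to 40.6) all stand above its WKY arrays (3.19 to 14.9).

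Markers of cell types were summed over their tested members to show what else moved with the strains. Of 24 markers of dividing cells 9 were tested and 0 passed, against the 1.67% higher and 2.43% lower of all genes, with a summed signal of 710 to 826 in SHR arrays and 680 to 788 in WKY arrays. Their differences ran from -0.21 for Mcm2, of the replicative helicase, to 0.49 for Aurkb, a kinase of cytokinesis (limma adjusted p = 0.386 and 0.0588), with 6 above 0 and 3 below. The sums of the neuron (15 of 16 tested), oligodendrocyte (9 of 10) and astrocyte (8 of 9) markers overlapped between the strains, at 16880 to 18150 in SHR and 15510 to 17570 in WKY for neurons. In each of these lists 1 member was called: Snap25 higher (0.33), Mobp lower (-0.34) and Aldoc higher (0.28), with limma adjusted p = 0.047, 0.0120 and 0.0496. These calls ended under 15, 2 and 18 of 24 alternatives. Differences below 0 were found for 6 of 15 neuron, 8 of 9 oligodendrocyte (median -0.075) and 3 of 8 astrocyte markers. The sum of the 11 tested microglia markers did not overlap, at 2468 to 2632 in SHR and 3008 to 3329 in WKY. Of its members 5 were called lower, and 1 had a difference above 0. The 3 of lowest adjusted p were C1qa, Lyz2 and Aif1, with log2 differences of -0.42, -0.40 and -0.52 (limma adjusted p = 0.00095, 0.00095 and 0.0022). The calls of C1qa and Lyz2 ended under 0 of 24 alternatives and that of Aif1 under 1 (-0.0071, limma adjusted p = 0.976). Of the choroid plexus markers 5 of 8 were tested, all with log2 differences above 0 (median 0.28). That of Ttr was 0.068 ± 0.32, and its mean signal was lower in SHR, at 58.1 ± 20.4 against 67.0 ± 66.0 in WKY. Of the 5, 2 were called higher, Sostdc1 with 46.1 ± 7.34 in SHR and 28.7 ± 2.62 in WKY and Enpp2 with 748 ± 50.6 in SHR and 612.5 ± 62.3 in WKY. The Sostdc1 call ended under 12 of 23 alternatives and the Enpp2 call under 9 of 24. The summed signal of the choroid plexus markers overlapped, at 966 to 1115 in SHR arrays and 724 to 983 in WKY arrays. Enpp2 made up most of this sum, so the sum mainly follows that gene. Ependyma markers (5 of 16 tested, 0 called) and endothelium markers (8 of 9 tested, Vwf called lower) had sums that overlapped, at 458 to 617 in SHR and 488 to 573 in WKY for ependyma and 1085 to 1224 in SHR and 1113 to 1173 in WKY for endothelium. Of the endothelium differences 4 were above 0 and 4 below. Vwf differed by -0.52 (limma adjusted p = 0.0149), a call that ended under 4 of 24 alternatives. Pecam1 differed by 0.40, with all SHR arrays above all WKY arrays, but did not pass (limma adjusted p = 0.0874). The part of these cell types in the Kif13a difference was not tested.

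Other genes of microtubule transport also held few calls. Of 29 tested adaptors and regulators of kinesin cargo, 1 was higher and 1 was lower in SHR, against 1.67% higher and 2.43% lower over all genes. The lower one was Madd, an adaptor of Kif1a and Kif1b for Rab3 vesicles, with 311 ± 19.3 in SHR and 394 ± 27.6 in WKY (-0.32 ± 0.065; limma adjusted p = 0.00762), and no overlap between strains. The higher one was App, the amyloid precursor protein that travels along axons, with 3321 ± 357 in SHR and 2655 ± 212 in WKY (0.32 ± 0.076; limma adjusted p = 0.0234). Of 24 genes of dynein and dynactin, which move cargo toward the minus end, 1 was lower and 0 were higher: Actr1a, of the dynactin filament, had 437 ± 15.5 in SHR and 528 ± 52.3 in WKY (-0.26 ± 0.066; limma adjusted p = 0.0333). Of 27 genes listed for the microtubule track, among them tubulins, microtubule-associated proteins and enzymes, 1 was lower and 0 were higher. The lower one, Map4, had 349 ± 32.5 in SHR and 425.5 ± 40.5 in WKY (-0.28 ± 0.075, limma adjusted p = 0.0494). The median differences of these lists were -0.0071, -0.031 and 0.052, against 0.002 for all genes. The Madd call held without any 1 array but ended when both WKY 4 and WKY 5 were left out (limma adjusted p = 0.126). It also ended for the mean of its probe sets (-0.12, limma adjusted p = 0.277). All 4 calls ended with array median signal as a covariate (limma adjusted p of 0.248 to 0.662), which is partly confounded with strain. The App call ended without SHR 3, SHR 4, WKY 1 or WKY 4 (limma adjusted p of 0.0525 to 0.0815), that of Actr1a without SHR 1, SHR 4, SHR 5, WKY 4 or WKY 5 (0.0548 to 0.104), and that of Map4 without SHR 1, SHR 2, SHR 3, SHR 4, WKY 2, WKY 4 or WKY 5 (0.0698 to 0.143). Second probe sets of Madd, App and Actr1a differed by 0.082, 0.0027 and 0.18, and those of Map4 by -0.32 and 0.14, and none passed. Kifc2 and Kifc3, minus-end kinesins outside the naming rule, did not pass.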

How the data were processed

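Per the labels' protocols, amplified NTS RNA was read on 1-colour Affymetrix rat arrays. The deposited intensity values are linear, 1 for each probe set and array, made by the authors with GCOS 1.2 per the submitters' processing notes; no background step or detection call was used here. From the values, the mean after trimming 2% at each end is 100.02 to 100.03 on all arrays, so no further normalization was applied. The 57 control probe sets were left out. Precision is limited by the number of arrays, and p-values reflect no more than the spread among these arrays, which may be technical.

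Values were tested as log2(signal + 16) with limma 3.58.1 (R 4.3.3; strain as the only term, eBayes with trend) over the 18846 probe sets kept by the filter, over 10668 genes on their brightest kept probe set, and over pairs of probe sets of a gene (no trend). The log2 scale understates changes of low signals. Fits were checked on simulated data with independent noise for each probe set. These data held no effect shared across an array, so the check does not cover such effects. Symbols came from the platform annotation, checked against GRCr8 through Entrez identifiers; 4 probe sets with several symbols that include a kinesin were left out. Named were all kinesin probe sets past the threshold or with an unadjusted p under 0.05, the brightest of each transport gene, and up to 3 called members of other lists. Any other kinesin could be named as a member, and Aurkb, Mcm2, Ttr, Pecam1, Kifc2 and Kifc3 were named after their values were seen. Members and lists were chosen with earlier results of these data known. Alternatives were other normalizations, offsets, filters and variance models, array weights, a median-signal covariate, the replicate block and leaving out arrays; leaving out both WKY 4 and WKY 5, the fits of Kif20a without the filter, and the mitotic sum without Kif20a were added after seeing the data.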

Additional observations from a re-analysis of the deposited data

Results flagged for a closer look

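In each probe set the highest or lowest array of a strain was flagged where its gap to the nearest other array exceeded 0.71 of the strain's range, Dixon's critical value for 5 samples. Of 118 groups 10 were flagged, where chance flags about 1 in 20, or 5.9. Among tested probe sets, Kif13a 1390480_at had 38.8 in WKY 3 against 58.7 to 62.5 in the other WKY arrays; without WKY 3 its log2 difference was 0.76 and still passed (limma adjusted p = 0.000359). Kif22 had 82.9 in WKY 2 against 51.6 to 60.2 in the other WKY arrays, and Klc4 had 144 in SHR 3 against 96.9 to 108 in the other SHR arrays. The other flags fell on dim, untested probe sets: Kif18a had 17.3 in SHR 4, Kif23 15.6 in SHR 2, Kif5a 30.3 in SHR 5, Kif5c 30.4 in SHR 5, Kif26b 33.0 in WKY 3, Kif16b 0.977 in WKY 3 and Kif1a 13.3 in WKY 1.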

How the results depend on the processing

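The Kif13a call on 1390480_at held under all 23 alternatives, with log2 differences of 0.57 to 1.02 and limma adjusted p of 0.000141 to 0.0046, and 0 kinesins were called lower under any of them. Kinesin probe sets called higher numbered 2 without the filter (1 to 2 with 1 array left out), and kinesin genes 2 without the filter. The same-gene count was 0 with the filter at the 60th percentile, where the dimmer Kif13a probe set was no longer kept, and 0 without both SHR 2 and SHR 3 (0 to 1 with 1 array left out). Partner genes called higher were 0 with quantile normalization, without the filter, without the trend, with the median-signal covariate, without both SHR 2 and SHR 3 and without both WKY 4 and WKY 5, 3 with the replicate block, and 0 to 4 with 1 array left out; those called lower were 1 with quantile normalization, without the trend and without both SHR 2 and SHR 3, 0 with the covariate and without both WKY 4 and WKY 5, and 1 to 3 with 1 array left out. The calls of Madd, App, Actr1a and Map4 ended under 3, 11, 11 and 16 of 24 alternatives; the cause was not tested. Over all tested probe sets 803 passed, 206 with the covariate, 450 without WKY 5, 452 without WKY 4, 510 without SHR 2, 495 without both SHR 2 and SHR 3, 230 without both WKY 4 and WKY 5, and 1214 with the replicate block. Same-numbered arrays correlated at 0.038 to 0.282 in their deviations, not all over 0.1, so the number was kept as a label only; that 6 of 10 correlated best with their own number is a hint of pairing from the data, not the design; under the replicate block Kif13a kept its call (limma adjusted p = 0.000468).

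Of 35 tested kinesin probe sets 17 turned their sign somewhere, all uncalled, with main differences of at most 0.23. With the median-signal covariate, which overlaps with strain, these were Kif11 (-0.093), Kif26b 1390367_at (-0.032), Kif2a 1392532_at (0.068), Kif13a 1390319_at (-0.030), Kif1a 1382785_at (-0.026), Kif1c (-0.034), Kif21a (0.074), Kif3a 1378509_at (-0.067), Kif5b 1372444_at (0.048), Kif5c (-0.16), Klc2 (-0.0050) and Klc4 (-0.029). With quantile normalization they were Kif3a 1378509_at (-0.016), Kif5a 1373187_at (0.012) and Klc1 1370886_a_at (-0.025), and with array weights Klc1 (-0.0085) and Klc2 (-0.016). Without both SHR 2 and SHR 3 they were Kif21a (0.041), Klc1 (-0.025) and Klc2 (-0.093), and without both WKY 4 and WKY 5 Kif21a (0.010), Kif3a 1378509_at (-0.024) and Kif5c (-0.0076). With 1 array left out Kif16b 1394535_at ranged from -0.014 to 0.30, Kif1a 1384133_at from -0.14 to 0.076, Klc1 1370886_a_at from -0.040 to 0.037, Klc2 from -0.031 to 0.093 and Klc3 1381537_at from -0.15 to 0.023.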

Other observations

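Among the 10 protein-coding genes on either side of Kif13a in the order of GRCr8 chromosome 17, 12 were tested and 0 passed in limma. Over all genes 1.67% were higher and 2.43% lower, so that a count of 0 is near that share. An unadjusted p under 0.05 was found for 3 of the 12, and the share over all genes was not counted here. Of those nearest, Tpmt, a thiopurine methyltransferase, had 79.3 ± 6.70 in SHR and 66.4 ± 6.77 in WKY (SD, n = 5; log2 difference 0.21 ± 0.095; limma adjusted p = 0.221), and Nup153, a protein of the nuclear pore, had 223 ± 27.3 and 241 ± 17.9 (-0.11 ± 0.083; limma adjusted p = 0.492). Dek, a chromatin protein, differed by 0.15 and Cap2, an actin regulator, by -0.20. These genes were looked at after the Kif13a values were seen.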
